A study of Mus musculus with 16 samples.

Results

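Oxidative phosphorylation, the respiratory chain of complexes I to IV together with ATP synthase (complex V), was followed here through the RNA of its subunits in mouse bone marrow. The genes were taken by name: every symbol starting with Nduf, Uqcr, Atp5, Cox4, Cox5, Cox6, Cox7, Cox8 or mt- that had at least 100 unique molecular identifiers (UMIs, counted RNA molecules) summed over 12 bone marrow libraries. This gave 99 of 32286 genes in the tables. Of these, 86 are encoded in the nucleus (38 complex I subunits by name, 8 complex I assembly factors, 8 of complex III, 15 of complex IV and 17 of complex V) and 13 are encoded in mitochondrial DNA. Another 4 genes with these prefixes fell short of 100 UMIs: Cox7b2 and Ndufa4l2 had 4 each, and Cox8b and Cox8c had 2 each. The rule itself uses names and total UMIs and no measured change, though it was written with earlier results of these data known.

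The respiratory chain passes electrons from NADH and succinate to oxygen and pumps protons across the inner mitochondrial membrane, and ATP synthase uses the resulting gradient to make ATP. Most subunits are encoded in the nucleus and imported, whereas a small core of complexes I, III, IV and V is transcribed and translated inside the mitochondrion, so that each complex needs both genomes. Mature neutrophils are known for few mitochondria and a reliance on glycolysis, while their dividing precursors respire, and plasmacytoid dendritic cells and blood progenitors are also rich in mitochondria.

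The marrow came from BALB/c mice in 3 groups. WT mice (labelled ctrl) carried no tumor and, by the study's account, were untreated, so that tumor, implantation and dosing with methylcellulose cannot be told apart between WT and vehicle. The vehicle and IACS-70654 groups carried 2208L, a transplanted Trp53-null mammary tumor, and received methylcellulose alone or IACS-70654, an oral inhibitor of the bromodomains of the transcriptional coactivators CBP and P300, on an intermittent schedule, for 7 days by the series' design text, while the study's account of the marrow experiment gives a shorter course. Animal age was not recorded in the labels. From each group, live CD45+Ter119- marrow cells and lineage-negative c-Kit+ (Lin-c-Kit+) CD45+ progenitors were sorted and sequenced separately, in 2 libraries per group and sort, with cells pooled from 3 mice. The labels do not say whether the 2 libraries of a group came from separate pools, so that p-values measure the spread between these libraries, which may be technical. In the 3 classes compared the 2 libraries of a group differed by more than counting noise (chi-square per degree of freedom 1.22 to 3.00 in 9 pairs), so that they are not one library deposited again, which does not show separate pools. Libraries held 27427163 to 68415534 UMIs and 2836 to 7517 cells after filtering. The filter on mitochondrial UMIs removed 1.79% to 3.01% of CD45+ barcodes and 6.06% to 12.1% of Lin-c-Kit+ barcodes, with the highest shares in the vehicle Lin-c-Kit+ libraries. No cell barcode was shared by libraries of one sort, and pairs of libraries of different sorts shared 1 to 14.

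Cells were clustered without the genes reported here and each cluster was named from marker lists, so that every class name below stands for cells like that type and may differ from the study's own naming. All 10 early-precursor markers, among them Elane and Mpo, were detected in the early neutrophil precursor class, and all 8 plasmacytoid dendritic markers in the plasmacytoid dendritic cell class, in each library. Detection in sums over many cells does not settle a name. A cluster that scored as immature neutrophil was counted as early precursor where over 50% of its cells held Mki67 and over 50% held Top2a. In the CD45+ early class of WT and vehicle, the immature markers summed to more than the early-precursor markers, as given below. Levels are given as CPM, the UMIs of a gene per 1000000 UMIs of its class in one library. A gene was called changed at an adjusted p below 0.01 and an absolute log2 change above 0.5 in edgeR's quasi-likelihood test of UMIs summed per library and class, with Benjamini-Hochberg adjustment over all genes tested. Some counts below use an unadjusted p below 0.05 from the same test. The share of all genes at that threshold was not taken, so that those counts have no background beside them.

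The highest summed levels stood in progenitors and the lowest in mature neutrophils. The 86 nuclear genes together made up 32944 ± 552 CPM (SD, n = 6 libraries) in erythroid progenitors and 31128 ± 1244 CPM in early neutrophil precursors of the Lin-c-Kit+ sort, against 6571 ± 1121 CPM in mature neutrophils of the CD45+ sort. Such means and SDs pool the libraries of all 3 groups, so that the SD also holds differences between groups. The 13 mitochondrially encoded genes followed another order. Their sum was highest in plasmacytoid dendritic cells, at 39028 ± 600 CPM, and lowest again in mature neutrophils, at 5095 ± 1387 CPM. The mitochondrial sum was 2.22 times the nuclear sum in plasmacytoid dendritic cells, 1.85 times in T or NK cells of the CD45+ sort (1.37 times in those of the Lin-c-Kit+ sort) and 1.67 times in stem-like cells, but 0.978 times in erythroid progenitors and 0.768 times in mature neutrophils. The balance between the genomes thus differed between classes whose nuclear sums were close, as in plasmacytoid dendritic cells (17643 ± 1162 CPM nuclear) and CD45+ early neutrophil precursors (17488 ± 2258 CPM nuclear, 24794 ± 2164 CPM mitochondrial). A lower summed CPM can reflect fewer such RNA molecules or more of other RNA in the class, which these values cannot tell apart.

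**Figure D1:**
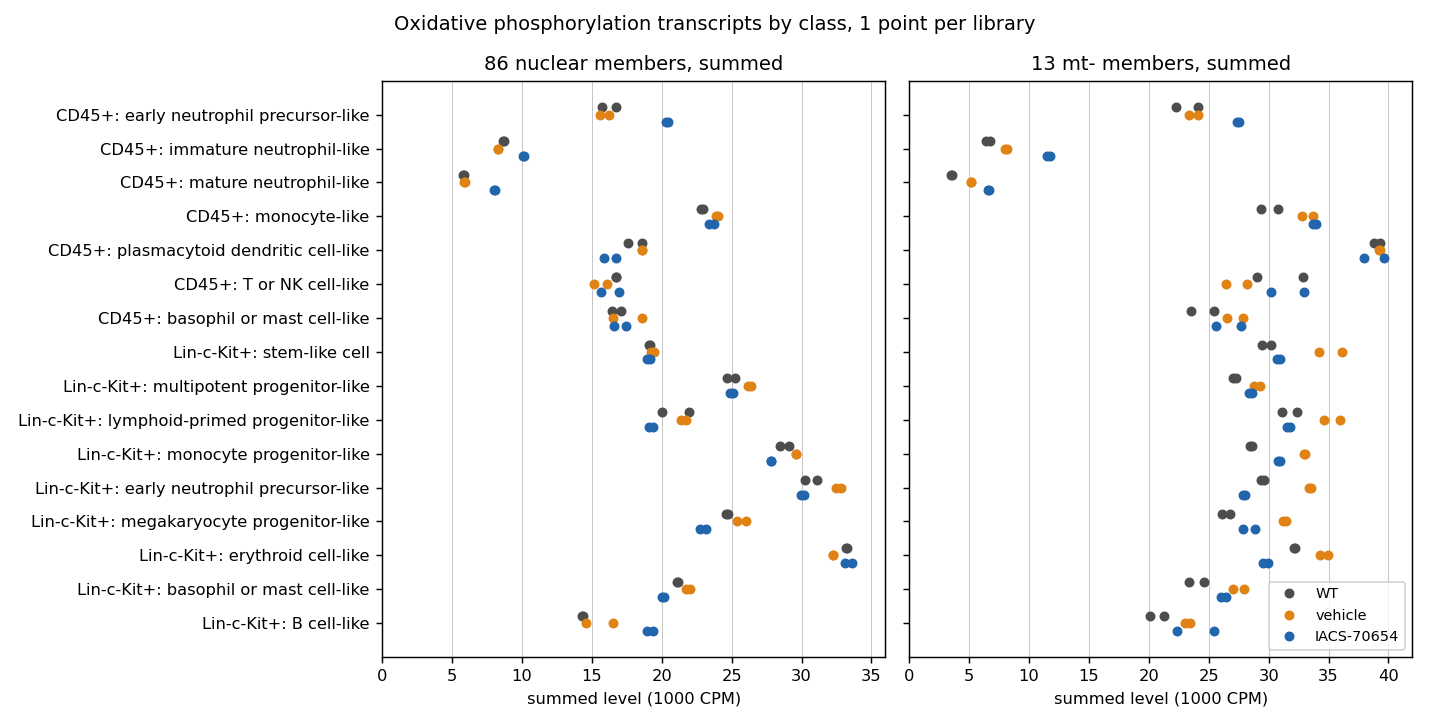
Summed level of the 86 nuclear genes (left) and the 13 mitochondrially encoded genes (right) in units of 1000 CPM, 1 point per library, colored by group. Mature neutrophil-like cells have the lowest sums of both kinds, erythroid-like progenitors the highest nuclear sum (32944 CPM on average) and plasmacytoid dendritic cell-like cells the highest mitochondrial sum (39028 CPM).

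Single genes with the most UMIs were mt-Co3, mt-Atp6 and mt-Co1 among the mitochondrial genes, which encode subunits of complexes IV and V, and Cox4i1, Cox8a and Ndufa4 among the nuclear genes. Only 3 of the 99 genes had a class in which their mean CPM was at least 5 times their median over the 21 classes measured. All 3 are alternative isoforms of complex IV subunits. Cox6a2, the heart and muscle isoform of subunit VIa, averaged 397 ± 249 CPM in plasmacytoid dendritic cells over all groups, 506 times its median of 0.785 CPM. Its libraries there ranged from 69.8 to 627 CPM and were lowest with IACS-70654, as given below. Cox6b2, known as the testis isoform of subunit VIb, averaged 257 ± 49.2 CPM in erythroid progenitors, 6.75 times its median. Cox4i2, the hypoxia-linked isoform of subunit IV, was rare everywhere and highest in monocyte progenitors, at 5.01 ± 1.30 CPM, 7.05 times its low median of 0.711 CPM. Stem-like cells were close, at 4.285 CPM, with a highest library of 6.75 CPM against 6.68 CPM in monocyte progenitors.

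Across the neutrophil stages of the CD45+ sort, both genomes' transcripts fell, and the mitochondrially encoded ones fell further. Within each of the 6 libraries the nuclear sum of mature neutrophils differed from that of early precursors by -1.52 to -1.34 log2 units and was on average 37.4% of it. The mitochondrial sum differed by -2.75 to -2.05 log2 units and was on average 19.9% of the early value. The ranges of the nuclear and mitochondrial differences did not overlap. Immature neutrophils, which make secondary granule proteins such as Ltf and Camp, lay between: their nuclear sum was 51.7% and their mitochondrial sum 34.5% of the early precursor values. From the immature to the mature stage the sums dropped again, to 72.4% and 57.8% of the immature values.

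In the test of mature neutrophils against early precursors, 70 of 84 nuclear genes were lower and none was higher, and all 13 mitochondrial genes were lower. This comparison called 72.9% of 12470 genes and 39.2% as lower, since the stages differ throughout their transcriptomes. Against that background, 83.3% of the tested nuclear genes and 100% of the mitochondrial genes were called lower. The median log2 change was -1.30 for the nuclear genes, -2.24 for the mitochondrial genes and -0.13 for all genes. By complex, leaving out complex II, which the name rule does not reach, the called genes were 32 of 38 for complex I (median log2 change -1.44), 7 of 8 for its assembly factors (-2.03), 7 of 8 for complex III (-1.17), 9 of 13 for complex IV (-1.03) and 15 of 17 for ATP synthase (-1.23). The step from early precursors to immature neutrophils called 46 of 84 nuclear genes and all 13 mitochondrial genes lower (medians -0.62 and -1.26), where 34.8% of all genes were called lower and 64.8% in all. The step from immature to mature neutrophils called 59 of 83 and 13 of 13 lower (medians -0.76 and -0.93), where 21.7% of all genes were and 42.3% were called in all.

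**Figure D2:**
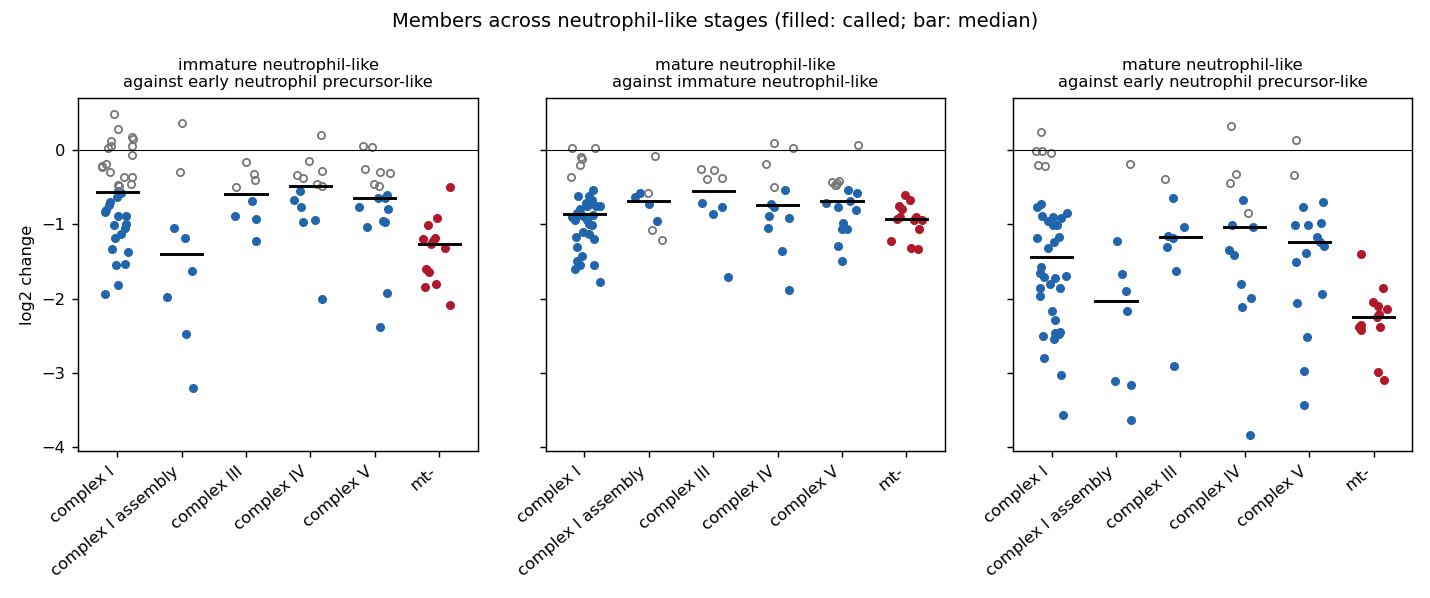
Log2 change of each gene between neutrophil-like stages (y axis) by complex (x axis), 1 point per gene, filled where called and with a bar at the median. In mature against early cells the mitochondrial genes center at -2.24 and the parts of the nuclear set between -1.03 and -2.03.

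Atp5g1, which encodes the c subunit of the rotating ring of ATP synthase, showed the fall in every library. Its levels in early precursors were 191 and 229 CPM in WT, 190 and 166 CPM in vehicle and 327 and 335 CPM in IACS-70654 libraries. In immature neutrophils they were 34.0 and 36.7 CPM, 21.97 and 22.6 CPM, and 46.6 and 43.1 CPM in the same order, and in mature neutrophils 14.5 and 16.3 CPM, 13.7 and 13.3 CPM, and 21.3 and 27.2 CPM. Early precursors overlapped neither later stage, and within each library the mature level was below the immature one. The log2 change from early to mature was -3.43 (SE 0.08, adjusted p = 1.57e-11). Other large falls among the nuclear genes were those of Cox6b2 (log2 change -3.84, SE 0.14), the complex I assembly factors Ndufaf6 (-3.63, SE 0.26) and Ndufaf4 (-3.16, SE 0.33), and the complex I subunit Ndufa5 (-3.56, SE 0.13). Ndufaf6 and Ndufaf4 rested on 1 to 12 UMIs per library in mature neutrophils, so that the depth of their fall is poorly fixed.

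Among the mitochondrial genes the complex I subunits mt-Nd4l (log2 change -3.10, SE 0.09) and mt-Nd1 (-2.99) fell most from early to mature cells, followed by mt-Nd2, mt-Cytb and mt-Nd3 at -2.43 to -2.38. The smallest fall was that of mt-Co1, the catalytic subunit of complex IV, at -1.40. For mt-Nd1, early precursors held 914 and 1067 CPM in WT, 950.0 and 888 CPM in vehicle and 1334 and 1327 CPM in IACS-70654 libraries, and mature neutrophils 94.0 and 103 CPM, 103 and 105 CPM, and 125 and 116 CPM. For mt-Co1 the early values were 4625 and 4826 CPM, 5084 and 5109 CPM, and 4586 and 4582 CPM, and the mature values 904 and 877 CPM, 1678 and 1702 CPM, and 2013 and 2022 CPM. The early levels of mt-Co1 were thus close across groups while the mature levels were spread by group, although with TMM factors mt-Co1 was not called for IACS-70654 against vehicle in mature cells (log2 change -0.0022, SE 0.02). A few nuclear genes, chosen here after their values were seen, had changes near 0 that were not called: Ndufs1, an iron-sulfur subunit of complex I (-0.02), Ndufb9 (-0.02), and Cox7a2l, a factor of supercomplex assembly (0.32).

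The early precursor class itself was not uniform. Of its 4 clusters, the one led by azurophil granule genes (Prss57, Ctsg, Ms4a3 and Elane) had nuclear sums of 24140 and 24548 CPM in WT, 27111 and 26572 CPM in vehicle and 24964 and 24907 CPM in IACS-70654 libraries. In the cluster led by mitosis genes (Ube2c, Cdkn3 and Cenpf) the nuclear sums were 12988 and 13539 CPM, 13025 and 12679 CPM, and 14530 and 14519 CPM. The granule cluster was therefore well above the mitotic cluster in each library. Its mitochondrial sums were also higher, at 33132 to 50503 CPM against 13737 to 19414 CPM. The granule cluster made up 21.1% of WT, 16.99% of vehicle and 49.7% of IACS-70654 early precursors. Without it, 80 genes were still called lower in mature neutrophils, and the medians were -1.03 for the nuclear and -1.81 for the mitochondrial genes.

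**Figure D3:**
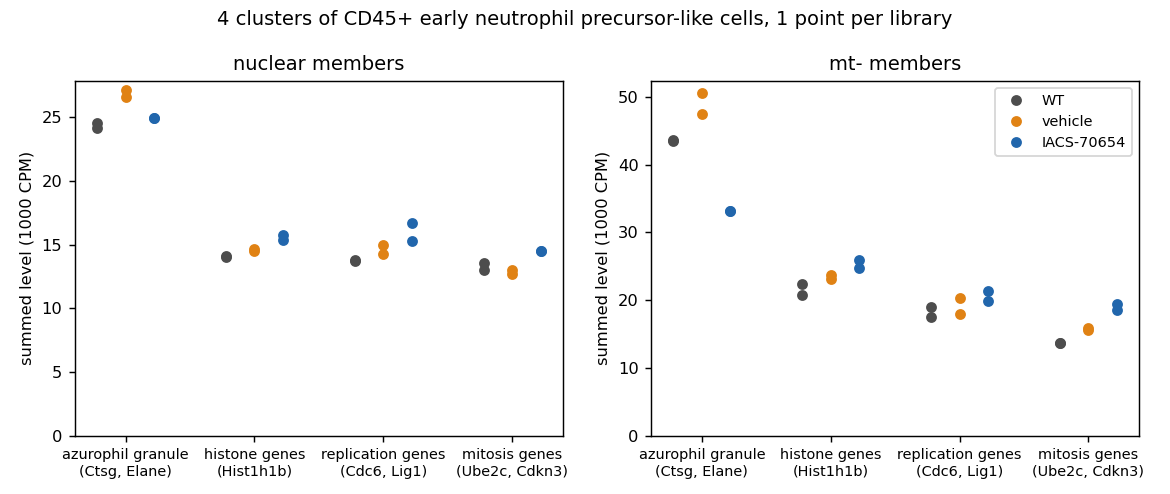
Summed level of the nuclear (left) and mitochondrial (right) genes in units of 1000 CPM in the 4 clusters of CD45+ early neutrophil precursor-like cells, 1 point per library, colored by group. The granule cluster has the highest sums of both kinds, and its mitochondrial sum is lower in IACS-70654 libraries (33132 and 33183 CPM) than in vehicle libraries (47434 and 50503 CPM), whereas in the mitosis cluster the IACS-70654 libraries are highest.

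Vehicle-treated, tumor-bearing mice were compared with WT mice to see how these genes differ in tumor-bearing, dosed mice. In mature neutrophils no nuclear gene of 80 was called, and 3 of 13 mitochondrial genes were higher, in a comparison that called 8.09% of all genes and 4.38% as higher. At an unadjusted p below 0.05, 20 nuclear genes were higher and 4 lower, and DESeq2 also called no nuclear gene. The 3 mitochondrial genes, each also called by DESeq2 and in all 4 fits that left out a library, were mt-Co1 (log2 change 0.99, SE 0.03, adjusted p = 2.07e-34), mt-Nd5 of complex I (0.70, SE 0.10) and mt-Co2 of complex IV (0.67, SE 0.03). For mt-Co2 the mature levels were 541 and 567 CPM in WT and 841 and 846 CPM in vehicle libraries. The vehicle libraries were above both WT libraries for all 3 genes. The mitochondrial sum of mature neutrophils was 3458 and 3588 CPM in WT and 5150 and 5131 CPM in vehicle, and the nuclear sum 5774 and 5811 CPM against 5934 and 5875 CPM. The make-up of the class also differed: the cluster led by Gm16556 and Slc7a11 held 73.2% of WT but 4.45% of vehicle cells, and the one led by Acod1 held 11.1% and 52.8%. The mature markers summed to 43720 and 44516 CPM in WT against 39838 and 39703 CPM in vehicle. The T or NK markers, among them Cd3d, also a leading gene of an immature neutrophil cluster, summed to 256 to 257 CPM against 158 CPM. The part of these differences in the changes was not tested. The medians of the log2 changes were 0.07 for the nuclear, 0.41 for the mitochondrial and 0.00 for all genes.

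Immature neutrophils gave a like picture. No nuclear gene of 84 and 5 of 13 mitochondrial genes were called, all 5 higher in vehicle, where 6.96% of all genes were called and 3.66% as higher. At an unadjusted p below 0.05, 45 nuclear genes were higher and 2 lower. The called genes were mt-Atp8 (log2 change 0.84, SE 0.13) and mt-Atp6 (0.53) of ATP synthase, mt-Co1 (0.82, SE 0.02) and mt-Co2 (0.56) of complex IV, and mt-Nd5 (0.57). For mt-Co1 the immature levels were 1834 and 1854 CPM in WT and 2734 and 2731 CPM in vehicle libraries. Scaling mattered here: with library totals in place of TMM factors, the median of all genes moved to -0.27, that of the nuclear genes turned from 0.16 to -0.10, and mt-Co1 and mt-Atp8 were the 2 of the 5 still called, while Atp5g1 (-0.66), mt-Nd3 (-0.65) and Ndufs3 (-0.57) were then called lower. In early precursors only Cox6b2 was called, lower in vehicle (log2 change -0.84, SE 0.10), where 3.66% of all genes were called. Its levels there were 47.0 and 56.1 CPM in WT and 27.7 and 24.7 CPM in vehicle libraries. At an unadjusted p below 0.05, 30 nuclear genes were higher and 5 lower in these precursors, and 9 mitochondrial genes were higher and 1 lower. The medians were 0.09 for the nuclear, 0.16 for the mitochondrial and -0.01 for all genes. With library totals they were -0.06, 0.02 and -0.16.

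The change of mt-Co1 from WT to vehicle was larger in mature neutrophils than in early precursors by 0.77 log2 units (SE 0.06, adjusted p = 9.57e-17) in the test of that difference. The same test called mt-Nd5 (0.56), mt-Co2 (0.50) and the nuclear Cox7a2l (0.78), whose early levels were 135 and 142 CPM in WT and 104 and 105 CPM in vehicle libraries and whose mature levels were 90.2 and 96.6 CPM and 121 and 128 CPM. Cox7a2l thus stood lower in vehicle in early and higher in mature cells, and neither change was called on its own. This test called 1 of 84 nuclear and 3 of 13 mitochondrial genes, and 4.3% of all genes.

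IACS-70654 was compared with vehicle to see how treatment related to these genes in tumor-bearing mice. Both comparisons use the same vehicle libraries, so that a high vehicle value lowers one change as it raises the other. In mature neutrophils 18 of 80 nuclear genes were called higher with treatment and none lower, 22.5% of those tested, where 10.6% of all 10742 genes were called higher and 19.8% in all. DESeq2 called 12 of the 18. Of the 80, 69 had a positive change, and the median log2 change was 0.25 for the nuclear genes and 0.00 for all genes. The mitochondrial genes had a median of 0.16, and 2 of 13 were called, mt-Nd6 (1.03, SE 0.23) and mt-Nd3 (0.51, SE 0.14). DESeq2 called neither (adjusted p = 0.046 and 0.085), and they were called in 2 and 1 of the 4 fits without one library. By complex, 8 of 38 complex I subunits, 3 of 5 of its assembly factors, 1 of 8 complex III, 1 of 12 complex IV and 5 of 17 ATP synthase genes were called. The nuclear sums were 7988 and 8046 CPM with IACS-70654 and the mitochondrial sums 6602 and 6641 CPM, above both vehicle libraries in each case.

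Ndufa11, a membrane subunit of complex I, had 16.0 and 19.3 CPM in WT, 22.3 and 18.7 CPM in vehicle and 49.1 and 53.3 CPM in IACS-70654 mature neutrophils. Both treated libraries were above all 4 others, and the log2 change from vehicle was 1.08 (SE 0.10, adjusted p = 2.91e-13). Ndufaf7, a methyltransferase needed for complex I assembly, changed by as much (1.08, SE 0.19, adjusted p = 5.74e-06) on fewer UMIs, with 6.71 and 4.35 CPM in vehicle and 14.95 and 12.8 CPM in treated libraries. Next in size were the complex I subunits Ndufb5 (0.86, SE 0.11), Ndufs3 (0.85, SE 0.17) and Ndufa9 (0.81, SE 0.21). For Ndufb5 the levels were 18.2 and 17.6 CPM in vehicle and 36.1 and 41.3 CPM in treated libraries. Of the 20 genes called, 13 were called in all 4 fits without one library. Ndufs3 and Ndufa9 were not among the 12 called by DESeq2.

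Several measures moved with treatment in this class, and their part in these changes was not tested. Different clusters held most of the mature class again: against the 52.8% of vehicle cells in the Acod1 cluster, 56.4% and 37.3% of IACS-70654 cells lay in 2 clusters led by Stfa2 and by Il1b. The summed level of the 9 mature neutrophil markers was 43720 and 44516 CPM in WT, 39838 and 39703 CPM in vehicle and 33382 and 33184 CPM in treated libraries, with none of the 9 at 0. The 9 monocyte markers summed to 360 to 370 CPM, 316 to 318 CPM and 177 to 195 CPM in the same order, also with none at 0. The 8 T or NK markers summed to 256 to 257 CPM, 158 CPM, and 48.2 to 51.6 CPM, with Klrb1c at 0 in every library. Cd3d, 1 of the 8, was also a leading gene of an immature neutrophil cluster, so that this sum does not mark T or NK cells alone. Mature neutrophils had a median of 2528 and 2562 UMIs per cell in the WT libraries against 3081 and 3104 for vehicle, with 3558 and 3519 under treatment. The scaling also shifted the values: with library totals in place of TMM factors, the median log2 change of all genes was 0.26 and that of the nuclear genes 0.51 and 44 genes were called instead of 20. Such a change of scale moves all genes by about the same amount.

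In immature neutrophils 6 of 84 nuclear genes were called higher with treatment, 7.14% of those tested, where 10.3% of all genes were called higher and 17.1% in all. Of the 13 mitochondrial genes 4 were called higher. The median log2 change was 0.45 for the mitochondrial and 0.09 for the nuclear genes, a difference that was not tested. The called mitochondrial genes were the complex I subunits mt-Nd6 (0.95, SE 0.12), mt-Nd1 (0.64, SE 0.04), mt-Nd2 (0.61) and mt-Nd3 (0.58). For mt-Nd1 the levels were 146 and 143 CPM in vehicle and 260.4 and 277 CPM in treated libraries. The nuclear genes called were the assembly factor Ndufaf2 (1.00, SE 0.19), Cox6b2 (0.75), Atp5g1 (0.74, SE 0.08), Ndufa5 (0.66), Ndufa4 (0.56), which is named for complex I but is a subunit of complex IV, and Ndufc2 (0.52). DESeq2 did not call Cox6b2 or Ndufc2. With library totals in place of TMM factors 33 genes were called in place of 10, and the nuclear median was 0.36. The direction here depended on the clustering: with the coarser Leiden resolution of 0.5, none of the genes was called higher and 5 nuclear genes lower, with medians of -0.19 for the nuclear and -0.09 for the mitochondrial genes. At that resolution a cluster of 1869 cells led by Astn2 and Stfa3, 93.7% of them from treated libraries, met no marker list and was left out. The clusters named immature also differed. They included one of 3199 cells led by Prok2 and Scrg1, 62.8% vehicle, and one of 2873 cells led by Cstdc6 and Stfa2, 96.9% treated. At the resolution used here a cluster of 1326 cells led by Prok2, 84.9% vehicle, was named mature. At the resolution used here the cluster led by Astn2 and Stfa3 was named immature and held 33.7% of the treated immature cells. Here too the clusters differed: 47.5% of WT and 57.4% of vehicle immature cells lay in a cluster led by Cd3d and Chil5 that held 1.18% of treated cells, while 62.3% of treated cells lay in one led by Cstdc6 and Stfa3. The part of this in the changes was not tested.

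In CD45+ early precursors 7 of 84 nuclear genes were called higher (8.33%), below the 13.3% of all genes called higher, out of 24.3% called in all. Of the 7, 4 were complex I assembly factors: Ndufaf4 (1.18, SE 0.13), Ndufaf6 (1.00, SE 0.16), Ndufaf2 (0.68, SE 0.10) and Ndufaf5 (0.62, SE 0.18). The call of Ndufaf5 was made in 0 of the 4 fits without one library and not by DESeq2 (adjusted p = 0.098). The others were Atp5g1 (0.61, SE 0.07) and Atp5g2 (0.56) for the same ATP synthase subunit and Ndufs3 (0.58). Ndufaf4 had 8.42 and 8.57 CPM in WT, 6.05 and 6.34 CPM in vehicle and 16.96 and 17.4 CPM in treated libraries. No mitochondrial gene was called there by edgeR or DESeq2, with a median of 0.03, and at an unadjusted p below 0.05 4 were higher and 1 lower. This depended on the cells kept: with cells of at most 5% mitochondrial UMIs the median was 0.25 and mt-Nd2 (0.76), mt-Nd3 (0.75) and mt-Nd1 (0.63) were called higher. The make-up of this class moved with treatment as well. The summed level of the 10 early-precursor markers was 11288 and 14008 CPM in WT, 11995 and 10723 CPM in vehicle and 26568 and 26251 CPM in treated libraries, and that of the 8 immature markers 84372 to 91274 CPM in the first 2 groups and 39699 and 39790 CPM with treatment, with no marker at 0. Without the granule cluster 3 genes were called in place of 7, Ndufaf6 (1.10) and mt-Nd3 (0.62) higher and Ndufa6 lower (-0.54), and the nuclear median was -0.01 in place of 0.16.

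**Figure D4:**
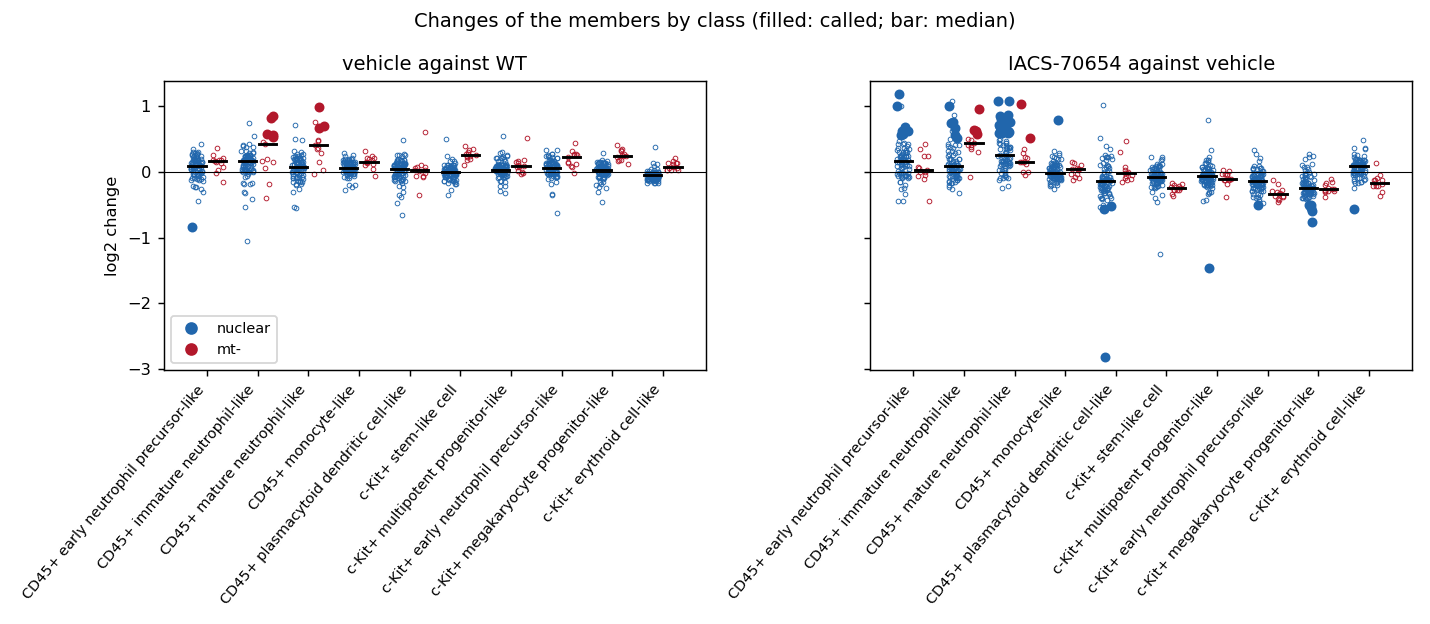
Log2 change of each nuclear (blue) and mitochondrial (red) gene, vehicle against WT (left) and IACS-70654 against vehicle (right), by class; filled points were called and bars mark medians. The filled red points on the left lie in immature and mature neutrophil-like cells, and on the right mature neutrophil-like cells have 18 filled nuclear points, all above 0.

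Treatment changes were tested for a difference between stages. By this test 8 of 84 nuclear genes (9.52%) and 0 of 13 mitochondrial genes changed more in mature neutrophils than in early precursors, where 6.63% of all genes did and 12.3% were called in either direction. The 8 were Ndufa11 (difference 0.90 log2 units, SE 0.11), Ndufaf7 (0.85, SE 0.24), Uqcrb of complex III (0.72, SE 0.09), Atp5h of ATP synthase (0.70, SE 0.07), and Ndufb5 (0.68), Ndufs6 (0.67), Ndufb3 (0.58) and Ndufc1 (0.50) of complex I. Uqcrb had 31.8 and 31.1 CPM in vehicle and 62.1 and 59.1 CPM in treated mature neutrophils. Ndufa11 in early precursors had 138 and 139 CPM in vehicle and 189 and 184 CPM in treated libraries, which is a smaller ratio than in mature cells. Ndufaf4 differed the other way (-1.86, SE 0.55), on 1 to 12 UMIs per library in mature cells. Without the granule cluster of early precursors 7 of the 9 were still called, Ndufaf4 and Ndufaf7 not.

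The promoters of the genes that rose together in mature neutrophils were read from RefSeq (GRCm38.p6, 250 bases before to 50 after the annotated start, 300 bases in all). Such a window was found for 72 of the 86 nuclear genes and 17 of the 18 called ones. Short cores were searched on both strands, with letters chosen after the data were seen. A gene was counted for a core if the window of any of its listed starts held it, while the windows printed below are those of the first listed start. GCGCATG, a core of the site of nuclear respiratory factor 1, occurred in 14 of 72 genes (19.4%) against 4.41% of 27025 genes with a promoter listed. It occurred in 2 of the 17 called genes and 10 of 52 other tested genes. CCGGAAG, the core of ETS factors such as GABPA, occurred in 17 of 72 (23.6%) against 9.93% of all, with 3 of 17 called genes and 14 of 52 others. GATGGCG, a core of the YY1 site, occurred in 11 of 72 (15.3%) against 4.04% of all, with 5 of 17 and 6 of 52. No test was made between these counts, and a match does not show binding. The windows of 3 genes whose change also differed between stages, 1 for each core, are shown 5′ to 3′ on the gene's strand with the matched letters of any of the motifs in capitals, Ndufa11 at chr17:56717512-56717811 (plus strand), Ndufs6 at chr13:73328433-73328732 (minus strand) and Atp5h at chr11:115419870-115420169 (minus strand).
Ndufa11: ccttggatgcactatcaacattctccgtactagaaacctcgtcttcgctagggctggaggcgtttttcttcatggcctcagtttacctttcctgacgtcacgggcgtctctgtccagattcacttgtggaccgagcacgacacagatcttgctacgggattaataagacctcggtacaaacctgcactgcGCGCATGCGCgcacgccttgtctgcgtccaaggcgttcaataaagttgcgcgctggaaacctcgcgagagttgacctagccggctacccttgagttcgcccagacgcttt
Ndufs6: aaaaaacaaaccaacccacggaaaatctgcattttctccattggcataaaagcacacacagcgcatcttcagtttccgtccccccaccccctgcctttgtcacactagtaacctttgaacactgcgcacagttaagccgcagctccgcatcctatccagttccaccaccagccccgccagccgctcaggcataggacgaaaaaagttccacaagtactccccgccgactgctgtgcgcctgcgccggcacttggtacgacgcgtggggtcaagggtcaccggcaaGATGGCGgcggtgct
Atp5h: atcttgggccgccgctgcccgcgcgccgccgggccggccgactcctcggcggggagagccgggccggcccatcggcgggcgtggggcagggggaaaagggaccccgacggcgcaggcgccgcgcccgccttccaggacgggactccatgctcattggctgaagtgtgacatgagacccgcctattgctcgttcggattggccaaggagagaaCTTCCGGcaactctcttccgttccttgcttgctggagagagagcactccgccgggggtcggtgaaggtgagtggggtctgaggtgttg
The window of Ndufa11 holds GCGCATG on both strands, overlapping within 1 run of capitals. That of Ndufs6 holds GATGGCG near its 3′ end, and that of Atp5h holds CCGGAAG on the opposite strand.

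Outside the neutrophil classes the largest change was that of Cox6a2 in plasmacytoid dendritic cells. Its levels were 558 and 539 CPM in WT, 627 and 498 CPM in vehicle and 69.8 and 89.2 CPM in IACS-70654 libraries, from 325 to 623 UMIs in the first 4 libraries and 60 and 94 in the last 2. Both treated libraries were far below all others, and the log2 change from vehicle was -2.81 (SE 0.15, adjusted p = 7.73e-12). Cox6a1, the common isoform of the same subunit, stood at 171 to 215 CPM in all 6 libraries, so that Cox6a2 was the more abundant isoform in WT and vehicle and the less abundant in treated cells. CPM here counts each captured 3' end as 1 molecule whatever the length of the RNA. Lymphoid-primed progenitors, the class with the next highest Cox6a2 level, changed the same way, with 59.6 and 38.6 CPM in WT, 56.0 and 83.5 CPM in vehicle and 18.7 and 24.5 CPM in treated libraries (log2 change -1.68, SE 0.27, adjusted p = 1.71e-05). That call was made in all 4 fits without one library, but DESeq2 gave the gene no adjusted p there and did not call it.

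Beside Cox6a2, only Cox5a (log2 change -0.56, SE 0.12) and Ndufa4 (-0.51, SE 0.12) were called in plasmacytoid dendritic cells, both lower, where 4.27% of all genes were called. Neither was called by DESeq2 or in all 4 fits without one library, whereas Cox6a2 was. The WT libraries held 133 and 139 such cells, the vehicle libraries 65 and 75, and the treated libraries 99 and 121. The defining markers, 8 in number, had a summed level of 8851 and 8435 CPM in WT, 8728 and 7935 CPM in vehicle and 6517 and 5848 CPM in treated libraries, none of them at 0 in any library. The 8 stem-like markers summed to 106 to 121 CPM in the first 4 libraries and to 228 and 244 CPM in the treated ones, with 1 to 5 of them at 0. The part of either in the change of Cox6a2 was not tested.

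**Figure D5:**
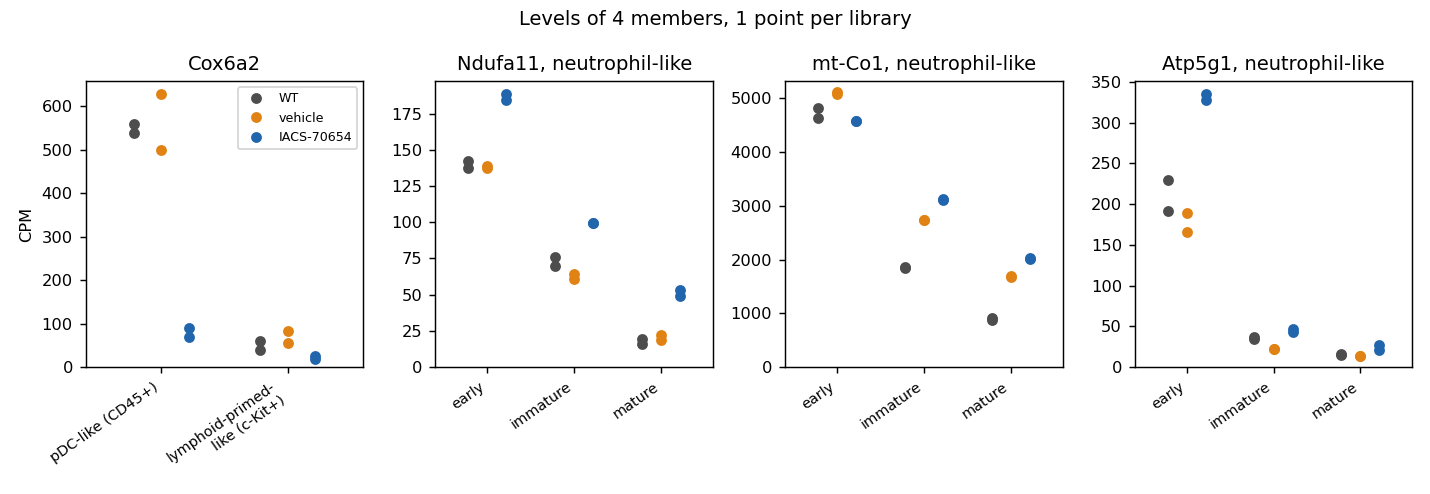
Levels in CPM of Cox6a2 in plasmacytoid dendritic cell-like and lymphoid-primed progenitor-like cells, and of Ndufa11, mt-Co1 and Atp5g1 in the 3 neutrophil-like stages, 1 point per library, colored by group. Cox6a2 is lowest in the IACS-70654 libraries of both classes (69.8 and 89.2 CPM in the first), Ndufa11 in mature cells is highest with IACS-70654, and the CPM of mt-Co1 in mature cells is lowest in WT, although its change with IACS-70654 was not called.

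Among Lin-c-Kit+ progenitors few genes passed the call, and each that did was lower with treatment. Stem-like cells had none, where 4.49% of all genes were called. Many smaller changes lay below the size threshold: at an unadjusted p below 0.05, 24 nuclear and 12 mitochondrial genes were lower and 2 nuclear genes higher in stem-like cells, and 59 nuclear and all 13 mitochondrial genes were lower and 4 nuclear genes higher in early neutrophil precursors of this sort. How many of all genes passed that threshold was not counted for either class. The cluster led by Alas1 and Cebpe held 44.9% of WT, 27.3% of vehicle and 55.96% of treated cells of the latter class, and the one led by Wfdc21 and S100a9 held 40.4%, 54.8% and 22.1%. In multipotent progenitors the cluster led by the mitosis genes Nusap1 and Cep55 held 37.3%, 57.9% and 37.3%. The part of these shifts in the changes was not tested. In erythroid progenitors 39 nuclear genes were higher and 11 lower at an unadjusted p below 0.05, and 10 mitochondrial genes were lower and none higher, again without a count for all genes. Multipotent progenitors (4.78%) and monocyte progenitors (6.14%) had only Cox4i2, at log2 changes of -1.47 (SE 0.35) and -0.81 (SE 0.25). Its multipotent progenitor values of 6.47 and 5.32 CPM in vehicle and 2.21 and 2.18 CPM in treated libraries rested on 10 to 31 UMIs, and neither call was made by DESeq2. Early neutrophil precursors of this sort (7.09%) had only Uqcrq of complex III (-0.51, SE 0.03), and this call was lost with library totals in place of TMM factors. In erythroid progenitors (5.88%) Cox6b2, there at its highest level, was lower: 278 and 299 CPM in WT, 284 and 290.2 CPM in vehicle and 197 and 190.3 CPM in treated libraries (-0.56, SE 0.04, adjusted p = 5.34e-11). The common isoform Cox6b1 had 605 to 651 CPM in these libraries and was not called. Cox6b2 was higher with treatment in CD45+ monocytes (0.78, SE 0.12), where 5.98% of all genes were called.

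Megakaryocyte progenitors had 5 genes lower (7.57% of all genes called), among them Ndufaf4 (-0.76, SE 0.14), at 65.4 and 51.3 CPM in vehicle and 43.4 and 29.2 CPM in treated libraries, and Ndufb2 of complex I (-0.60, SE 0.09). The others were Cox5a (-0.55), Atp5g1 (-0.51) and Ndufab1 (-0.51). DESeq2 called all 5, but Cox5a alone was called in all 4 fits without one library, and with library totals Ndufaf4 and Ndufb2 were the 2 still called. Basophils or mast cells had 4 lower (9.63%): Atp5g1 (-0.62, SE 0.08), Ndufa1 (-0.57), Uqcr11 (-0.53) and Cox6b2 (-0.50). DESeq2 did not call Cox6b2 (adjusted p = 0.147), and of the 4 Atp5g1 alone was called with library totals. Ndufaf4 and Atp5g1 were thus called lower in progenitor classes and higher in CD45+ early precursors, and the difference between those classes was not tested. In lymphoid-primed progenitors (2.07%) Ndufa4 was also lower (-0.54, SE 0.10), a call lost with library totals and made in 2 of the 4 fits without one library.

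No mitochondrial gene was called in any of the 9 Lin-c-Kit+ classes by edgeR, though at an unadjusted p below 0.05 up to 13 a class were lower with treatment. The vehicle against WT test called no gene of either genome in these classes, where it called 0.117% (B cells), 0.123% (lymphoid-primed), 0.607% (multipotent), 0.715% (erythroid), 0.834% (stem-like), 1.07% (megakaryocyte), 1.21% (basophil or mast cell), 1.42% (monocyte progenitor) and 1.61% (early neutrophil precursor) of all genes. At an unadjusted p below 0.05 it had at most 35 nuclear genes higher in a class, in early neutrophil precursors, where 7 were lower. It had at most 33 nuclear genes lower, in erythroid progenitors, where 0 were higher. Up to 13 mitochondrial genes a class were higher. The share of all genes at that threshold was not counted. B cells had no gene called with treatment (0.507% of all genes), with 4 nuclear genes higher and 3 mitochondrial genes lower at an unadjusted p below 0.05. Vehicle libraries had a higher mitochondrial sum than both WT libraries in 9 of 9 classes, by 0.10 to 0.25 log2 units, and treated libraries a lower one than both vehicle libraries in 8 of 9, with differences of -0.26 to 0.04. The nuclear sum was likewise higher in vehicle than in WT in 7 of 9 classes (differences of -0.04 to 0.11) and lower with treatment in 7 of 9 (-0.17 to 0.30). With treatment it was above both vehicle libraries in B cells, by 0.30, and in erythroid progenitors, by 0.05, and erythroid progenitors were also the class with a lower nuclear sum in vehicle than in WT. In Lin-c-Kit+ early neutrophil precursors the mitochondrial sums were 29605 and 29384 CPM in WT, 33543 and 33331 CPM in vehicle and 28021 and 27894 CPM in treated libraries. In stem-like cells they were 30220 and 29441 CPM, 36100 and 34197 CPM, and 30716 and 30960 CPM. In the CD45+ sort the mitochondrial sum of vehicle libraries was above both WT libraries in 4 of 8 classes and below both in 2, with differences of -0.18 to 0.55. With treatment the mitochondrial sum in that sort was above both vehicle libraries in 4 of 7 classes and below both in 0. The 4 with treatment include the 3 neutrophil stages, where the median of all genes without TMM factors was also 0.26 to 0.29 higher. In early precursors the sum was 0.21 log2 units higher while the mitochondrial median with TMM factors was 0.03. Within that class the treated sums were lower in the granule cluster (33132 and 33183 CPM against 47434 and 50503 CPM in vehicle). They were higher in the mitosis cluster (18530 and 19414 CPM against 15617 and 15912 CPM) and the cluster led by Hist1h1b, and overlapped vehicle in the one with Cdc6 and Lig1. The difference between sorts was not tested. The classes of a library share its preparation and are not independent, and the vehicle libraries also lost the largest share of barcodes to the mitochondrial filter (10.5% and 12.1%, against 6.06% to 8.29% in the other groups). The part of library preparation in this pattern was not tested.

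Other genes of the pathway, outside the name rule, were followed through 68 listed genes of complex II, electron carriers, assembly factors, the citric acid cycle, mitochondrial DNA and RNA, and regulators of mitochondrial biogenesis. From early precursors to mature neutrophils 46 of 66 were lower and 4 higher, with a median of -1.24, where 72.9% of all genes were called and 39.2% as lower. The largest falls were those of Idh3a of the citric acid cycle (-3.67, SE 0.17) and the electron transfer flavoprotein subunit Etfb (-3.45, SE 0.09). Complex II, the one complex without mitochondrially encoded subunits, had 1 of 4 genes lower and a median of -0.15. Of the regulators, with a median of -0.07, 2 of 6 were lower and 1 higher, the nuclear receptor gene Esrra (0.95, SE 0.09), and of the genes for mitochondrial DNA and RNA 16 of 19 were lower and 1 higher, Polg2 (0.92), which encodes the accessory subunit of the mitochondrial DNA polymerase.

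With IACS-70654 against vehicle, 18 of these 66 genes were called higher and none lower in CD45+ early precursors, where 13.3% of all genes were called higher and where the granule cluster went from 16.99% to 49.7% of the class. The part of that shift was not tested. Among the 18 were Ppargc1b, a coactivator of mitochondrial biogenesis (1.27, SE 0.23), and Suclg2 of the citric acid cycle (1.12, SE 0.11). In mature neutrophils 6 of 55 were called higher, near the 10.6% of all genes, led by Suclg2 (1.22, SE 0.28) and the mitochondrial transcription factor Tfam (1.15, SE 0.27), and Mterf4 was lower (-0.67, SE 0.21). In immature neutrophils 8 of 61 were called higher, where 10.3% of all genes were, led by Fh1 (1.14, SE 0.21) and Atpaf1 (0.89, SE 0.20), and Bcs1l was lower (-0.75, SE 0.21). Cycs, which encodes cytochrome c, the carrier between complexes III and IV, was called lower with treatment in 7 of the 9 Lin-c-Kit+ classes, with log2 changes from -0.55 (SE 0.08) in stem-like cells to -0.86 (SE 0.08) in megakaryocyte progenitors, and in plasmacytoid dendritic cells (-1.26, SE 0.18) and monocytes (-0.70, SE 0.05) of the CD45+ sort. Cycs was not called in B cells or erythroid progenitors. Of all genes, 4.49% were called in stem-like cells and 7.57% in megakaryocyte progenitors, 4.27% in plasmacytoid dendritic cells and 5.98% in monocytes. Cycs is 1 of the genes listed, and how many of the others were called in these classes is not given here.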

How the data were processed

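CD45+Ter119- and Lin-c-Kit+ bone marrow cells were profiled by 10x 3' single-cell RNA sequencing with CellPlex sample tags. The deposited matrices hold UMI counts per gene and cell, made by the authors with Cell Ranger (7.2.0 per the file headers) on mm10. Counts were not normalized. Of 16 samples, the 4 tumor libraries were not analysed here.

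Barcodes were kept with over 200 genes but under 6000, and with mitochondrial UMIs making up no more than 10%. This departs from the study's stated filter, which sets the first limits on read counts and joins a UMI number to the mitochondrial limit. Per sort, cells were clustered (2000 variable genes without the genes reported, 30 principal components, 20 neighbors, Leiden resolution 1, leidenalg 0.10.2) and clusters named from marker lists. Clusters that met no list stayed unnamed and entered no comparison, and no doublet caller was run. In the Lin-c-Kit+ sort the unnamed cells were 578 of 3875 and 492 of 3039 in the WT libraries. They were 234 of 6571 and 111 of 2836 in vehicle and 247 of 7517 and 162 of 4317 in treated libraries. The largest unnamed cluster there held 1754 cells, 59.6% of them WT, so that comparisons with WT leave these cells out. Counts were summed per class and library (at least 20 cells) and tested with edgeR 4.0.16 (R 4.3.3, filterByExpr, TMM factors, quasi-likelihood, Benjamini-Hochberg), 2 libraries per group; stages were tested with the library as a block. SE is the absolute log2 change divided by the root of F. The scripts were tested on simulated data. The genes named were the called genes with the 5 largest changes per direction in each comparison, nuclear and mitochondrial apart, the class-restricted genes and the 3 highest of each genome; further genes are said to be chosen after their values were seen or carry the difference between stages. Alternatives were DESeq2 1.42.0, other filters, mitochondrial limits of 5% and 20%, resolution 0.5, leaving out each library and a replicate block. The replicate numbers did not pair the libraries (correlations of deviations -0.035 to 0.052). The genes and lists were chosen with earlier results of these data known. UMI counting limits precision for genes with few UMIs, and free RNA was not removed.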

Additional observations from a re-analysis of the deposited data

Results flagged for a closer look

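The changes of 13 genes differed between mature neutrophils and early neutrophil precursors of the CD45+ sort in edgeR's quasi-likelihood test of the difference itself, with 2 libraries per group and a library block. For treatment these were 9 of 84 nuclear and 0 of 13 mitochondrial genes, where 12.3% of all genes were called. For the tumor-bearing vehicle mice against WT they were 1 of 84 and 3 of 13, where 4.3% of all genes were called. For IACS-70654 against vehicle, the change in mature cells minus that in early cells was 0.90 log2 units for Ndufa11, 0.85 for Ndufaf7, 0.72 for Uqcrb, 0.70 for Atp5h, 0.68 for Ndufb5, 0.67 for Ndufs6, 0.58 for Ndufb3, 0.50 for Ndufc1 and -1.86 for Ndufaf4. For vehicle against WT it was 0.78 for Cox7a2l, 0.77 for mt-Co1, 0.56 for mt-Nd5 and 0.50 for mt-Co2. Without the granule cluster of early precursors, 7 of the 9 treatment differences were still called; Ndufaf4 was at -1.44 (adjusted p = 0.175) and Ndufaf7 at 0.65 (adjusted p = 0.0421).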

How the results depend on the processing

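The number of genes called moved by more than 1.5 times as follows, and the cause was not tested. For IACS-70654 against vehicle in mature neutrophils 20 genes were called, 12 with DESeq2 and 44 with library totals without TMM, and 14 to 22 without one library. In early neutrophil precursors 7 were called for the same contrast, 12 with cells of at most 5% mitochondrial UMIs, 38 without TMM, 3 without the granule cluster and 5 to 8 without one library; in multipotent progenitors 1 was called, 0 with DESeq2, and 0 to 1 without one library. At resolution 0.5 the multipotent name went to a cluster led by Dntt and Flt3, the leading genes of the lymphoid-primed class used here, so that the 2 genes called there belong to other cells. In immature neutrophils, for the same contrast, 10 were called and 33 without TMM. At resolution 0.5 the direction turned, with 5 called, all lower. The class then lacked a cluster mostly of treated cells, and its other clusters differed as well. Without TMM, Lin-c-Kit+ basophils or mast cells had 1 in place of 4, megakaryocyte progenitors 2 in place of 5 and lymphoid-primed progenitors 1 in place of 2, and the single calls of early neutrophil and monocyte progenitors there went to 0. For vehicle against WT, mature neutrophils had 3, 5 without the filter on low counts, 5 without the clusters with Il1b among their leading genes and 3 to 4 without one library; early precursors had 1, and 2 without the granule cluster; multipotent progenitors had 0, and 1 with cells of at most 20% mitochondrial UMIs. Mature against early neutrophils gave 83 called genes and 80 to 90 under all alternatives, and the difference of treatment changes between these stages 9, 7 to 11 under all alternatives. Immature neutrophils had 5 for vehicle against WT under all alternatives, with 2 of these genes and 3 others without TMM. For the other classes only DESeq2, the fits without one library and those without TMM were run. The fits for immature neutrophils, those without TMM, without the granule cluster or the Il1b clusters, and without each library for the last result were chosen after seeing the data. No call count changed with a replicate block, which gave 20, 3, 7, 1, 1 and 0 for the contrasts between groups, and 10 and 5 in immature neutrophils; the replicate numbers are only shared numbers. Depth limits rare genes such as Cox4i2 and Ndufaf4 in mature neutrophils, and 2 libraries per group limit every test.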
